A study of Mus musculus with 14 samples.

Results

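E-cadherin and vimentin RNA both rose in mouse kidneys after renal ischemia/reperfusion injury (IRI), a model of acute kidney injury (AKI), while kidney cadherin fell by day 3. These are among 10 genes of epithelial identity and epithelial-mesenchymal transition (EMT) that were followed here: the cadherins Cdh1, Cdh2, Cdh6 and Cdh16, the adhesion protein Epcam, the intermediate filament gene Vim, and the transcription factors Snai1, Snai2, Zeb1 and Twist1. They were taken by symbol out of 24411 symbols counted in each library. RNA was sequenced in bulk from kidneys of male C57/B6 mice aged 8 weeks, taken at day 0 (n = 4 libraries), 1 day after IRI (n = 5) and 3 days after IRI (n = 5). The labels name no altered genotype and no drug for any of these groups. The day 0 libraries bear a control name, and whether those mice were sham-operated is not given in the sources used here. The labels do not say that the libraries came from separate animals, so p-values measure only the spread between these samples. Genes were tested with edgeR's quasi-likelihood test, with Benjamini-Hochberg adjustment over the 14300 genes that passed its expression filter, and a change was called at an adjusted p below 0.05. Levels are given as CPM, the reads of a gene relative to all reads on genes of its library, after TMM scaling.

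Each library held 12485579 to 20476979 reads on genes, and all 10 genes passed the filter, Twist1 with only 2 to 26 reads per library. The libraries carry running numbers of either 1 digit or 3 digits. Libraries with 1 digit make up the whole of day 0, replicates 3 to 5 at day 1 and replicates 4 to 5 at day 3, and the rest have 3 digits. What this difference marks is not given in the sources used here. It was therefore taken as a possible technical batch and every gene was also compared within each form, although day 0 has no 3-digit library. Replicate 2 of day 3 stood apart: 29.0% of its reads fell on no single gene, against 33.8% to 38.3% in the other libraries. Its 8 proximal tubule markers (Slc34a1 leading) summed to 11964 CPM, against 2087 to 6710 CPM in the other day 3 libraries and 12615 to 14165 CPM at day 0. Results of day 3 are given with and without this library where it moved them.

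Cadherins are transmembrane proteins that join neighboring cells through calcium-dependent contacts, and their tails bind catenins that connect to the actin skeleton. E-cadherin, the product of Cdh1, is the classical cadherin of distal nephron and collecting duct, whereas N-cadherin (Cdh2), cadherin-6 (Cdh6) and kidney-specific cadherin (Cdh16) are known from the tubule, Cdh2 and Cdh6 mainly from its proximal part. In EMT, transcription factors of the Snail, Zeb and Twist families bind E-box sequences in epithelial genes and repress them, and the cells gain mesenchymal proteins such as vimentin. Injured tubular cells are known to express vimentin for a time during repair without leaving the tubule, and fibroblasts, pericytes, endothelium and leukocytes express it as well. The comparison with day 0 asks how far the RNA of these genes had moved by each day after injury.

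Promoter sequence from RefSeq (GRCm38.p6) was used for 5 of the 10 genes (Vim, Cdh6, Epcam, Snai1 and Twist1). Cdh2 and Zeb1 were left out of the lookup, so whether they have an entry was not tested. The motif described next was searched only in the windows used. The 250 bases before the start were searched for CACCTG and CAGGTG, which are the same E-box read on either strand and the form that Snail and Zeb factors bind. The motif was found before Epcam and before Snai1, whose windows are shown because Epcam is an epithelial gene and Snai1 a repressor that acts through this element. Capitals mark the motif.
Epcam, chr17:87635729-87635978, plus strand: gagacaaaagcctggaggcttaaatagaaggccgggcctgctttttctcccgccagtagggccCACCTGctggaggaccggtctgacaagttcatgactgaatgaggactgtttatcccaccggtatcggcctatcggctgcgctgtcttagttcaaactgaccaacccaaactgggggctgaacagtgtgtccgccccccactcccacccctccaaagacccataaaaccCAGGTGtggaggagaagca
Snai1, chr2:167537945-167538194, plus strand: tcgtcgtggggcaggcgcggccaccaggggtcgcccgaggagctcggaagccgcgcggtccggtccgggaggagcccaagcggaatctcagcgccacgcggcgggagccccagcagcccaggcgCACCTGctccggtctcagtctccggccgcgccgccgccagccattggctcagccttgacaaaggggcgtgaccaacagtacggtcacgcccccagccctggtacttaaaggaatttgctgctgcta
In the Epcam window the motif begins 187 bases before the start (CACCTG) and again 19 bases before it (CAGGTG), and in the Snai1 window it begins 126 bases before the start (CACCTG). The windows of Vim, Cdh6 and Twist1 do not hold these letters. The Vim window, chr2:13574061-13574310, begins after the gene start printed below, so the annotations used place that start differently. Among 32817 mouse promoter windows of the same length, 17.2% hold the motif. A match describes the sequence, and binding was not tested.

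Per kilobase of exon, Cdh16 had the highest mean level of the 10 genes on every day, although in replicate 5 of day 3 Cdh1 was higher (137 against 122 CPM per kb). At day 0 it stood at 384 ± 12.6 CPM per kb (SD, n = 4), followed by Epcam at 55.0 ± 5.33, Cdh1 at 41.5 ± 5.21 and Vim at 6.53 ± 0.672 CPM per kb. The ranges of these 4 genes did not overlap. Snai2 (1.17 ± 0.0567), Cdh2 (0.911 ± 0.0353), Zeb1 (0.690 ± 0.135), Snai1 (0.672 ± 0.232), Twist1 (0.227 ± 0.239) and Cdh6 (0.209 ± 0.0339 CPM per kb) were all lower, and in this order each of Cdh2, Zeb1, Snai1 and Twist1 overlapped with the next gene. At day 1 Cdh1 (134 ± 62.8 CPM per kb, SD, n = 5) took the place after Cdh16 (272 ± 60.3), ahead of Epcam (71.4 ± 11.9), with which its range overlapped. By day 3 Vim had reached 41.1 ± 9.63 CPM per kb (SD, n = 5). It exceeded Epcam only in replicate 2 (55.4 against 28.1 CPM per kb), and in the other 4 libraries Vim (31.4 to 44.3) lay below Epcam (66.4 to 74.9 CPM per kb).

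**Figure D1:**
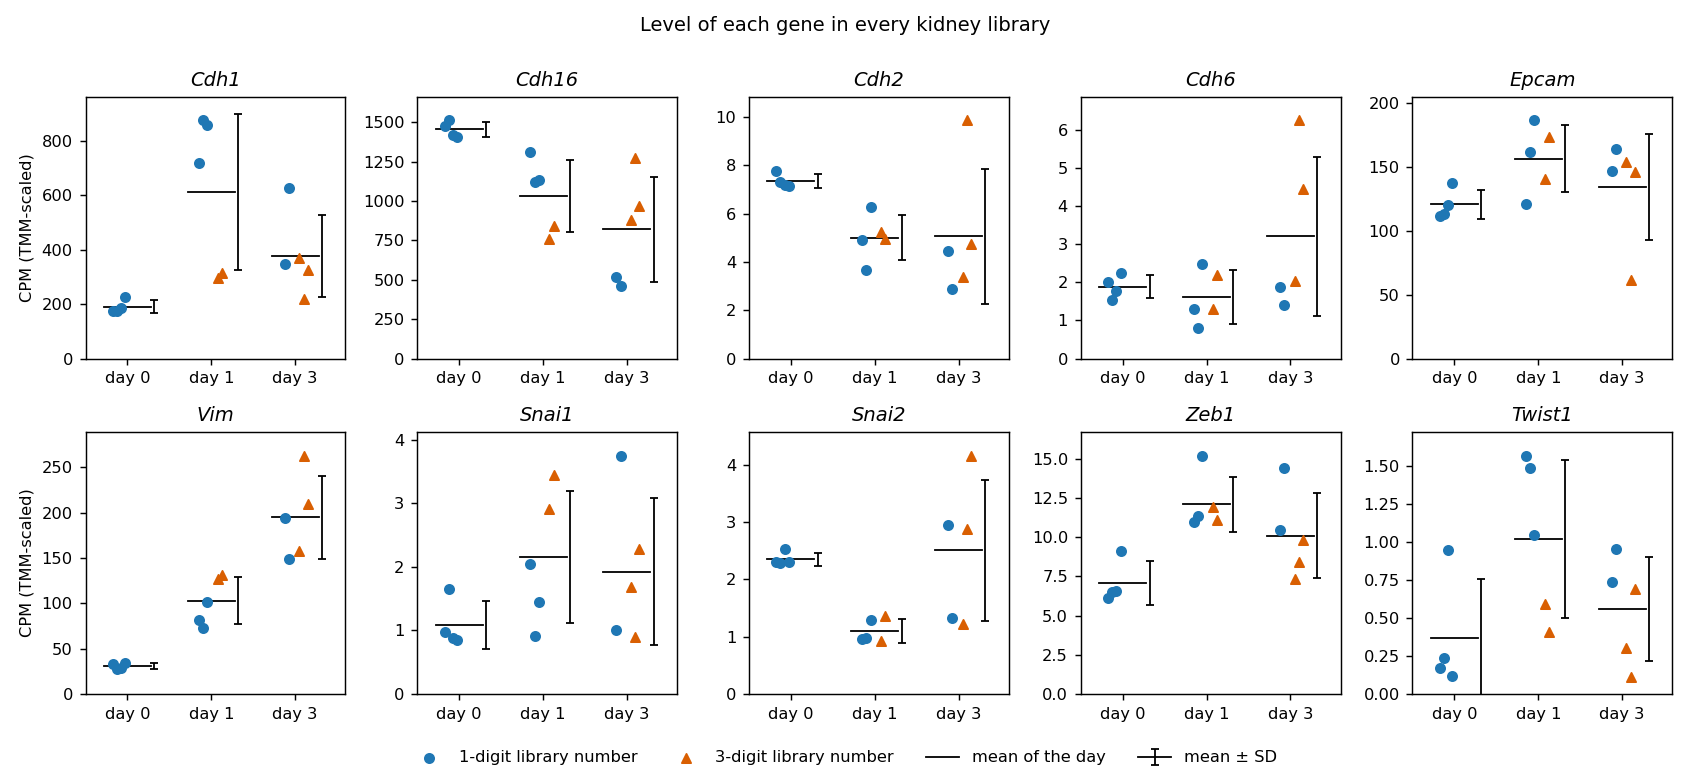
Level of each of the 10 genes in CPM (linear axis from 0) in every library of day 0, day 1 and day 3. Circles are 1-digit and triangles 3-digit libraries, the horizontal line is the mean of the day and the bar beside it is the SD, with n = 4, 5 and 5 and bars running below 0 not shown. The 5 Vim values of each day after IRI lie above all 4 values of day 0, and the Cdh1 values of day 1 fall into a group of 3 circles and a group of 2 triangles.

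At day 1, Cdh1, Vim and Zeb1 had risen and Snai2 had fallen, so that 4 of the 10 genes were called, where 42.1% of all genes tested were called in this comparison (23.3% higher and 18.7% lower). At day 3, Cdh1 and Vim were higher and Cdh16 was lower than at day 0, which is 3 of the 10 genes beside 33.3% of all genes (19.5% higher and 13.8% lower). The shares among these genes were thus close to those of the whole transcriptome. Between day 1 and day 3, Vim and Snai2 rose, 2 of the 10 genes beside 15.9% of all genes (8.52% higher and 7.39% lower). Cdh1 and Vim were higher at both days, as were 13.1% of all genes, and 0 of the 10 were lower at both days by edgeR's or DESeq2's test (0 also at an unadjusted p under 0.05 in edgeR), beside 8.77% of all genes. Groups did not overlap between day 1 and day 0 in 6 of the 10 genes (42% of all genes), between day 3 and day 0 in 2 (33.4%) and between day 3 and day 1 in 1 (7.61%).

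**Figure D2:**
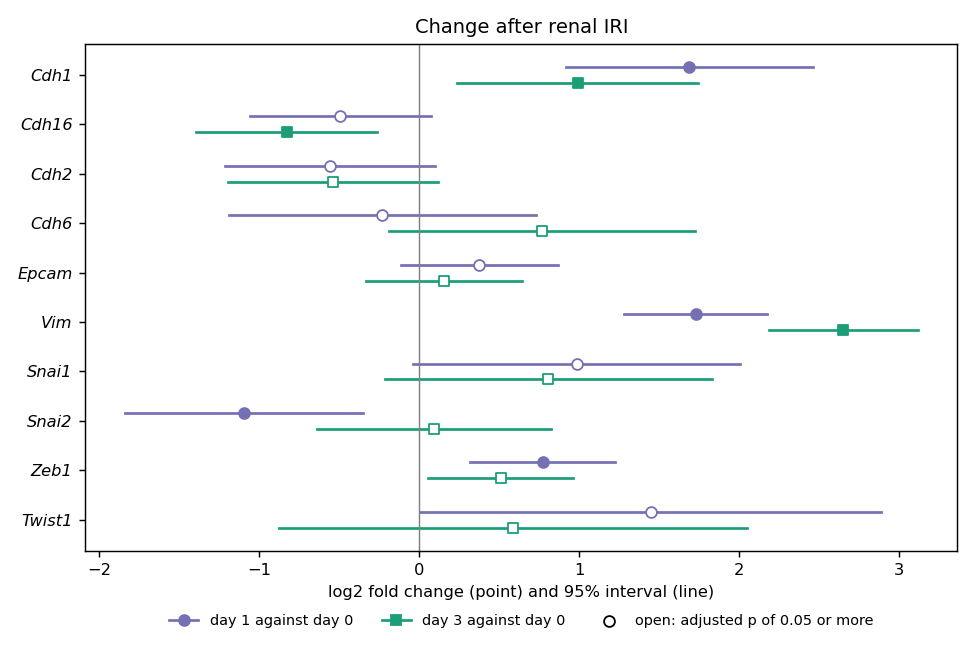
Log2 fold change of the 10 genes at day 1 (circles) and day 3 (squares) against day 0, with 95% intervals, from edgeR's quasi-likelihood fit over 14 libraries. Filled symbols have an adjusted p below 0.05. Vim lies farthest to the right at both days (1.73 and 2.65), and Snai2 at day 1 (-1.10) is the farthest to the left.

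Cdh1 (ENSMUSG00000000303.12), the gene of E-cadherin, lies on chr8:106603351-106670246 on the plus strand of GRCm38, with up to 17 exons. Its levels at day 0 were 174, 176, 184 and 225 CPM in the order of the replicate numbers. At day 1 they were 296, 316, 719, 876 and 860 CPM, and at day 3 they were 368, 219, 325, 349 and 627 CPM. All day 1 libraries lay above all day 0 libraries, and at day 3 only replicate 2 was within the day 0 range. The rise was 3.23-fold at day 1 (log2 1.69, SE 0.36, edgeR's quasi-likelihood test, adjusted p = 0.00249). It was 1.99-fold at day 3 (log2 0.99, SE 0.35, adjusted p = 0.0429). This later call was lost in 8 of the 14 fits that each left out 1 library, with an adjusted p of up to 0.111 without replicate 5 of day 3, while the fold change stayed between 0.74 and 1.14 on the log2 scale. Without replicate 2 of day 3 it was 1.14 (adjusted p = 0.0192), and with no filter on low counts 0.95 (adjusted p = 0.0541). Day 3 against day 1 gave -0.70 (adjusted p = 0.156), or -0.98 without replicate 5 of day 3 (adjusted p = 0.0430). Within the forms it was -0.76 with 1 digit (adjusted p = 0.0267) and -0.0082 with 3 digits (adjusted p = 0.983).

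The size of the Cdh1 rise at day 1 differed between the library number forms. The 1-digit libraries had 818 ± 86.1 CPM (SD, n = 3) and the 3-digit libraries 306 ± 14.1 CPM (SD, n = 2), a difference of -1.42 on the log2 scale (SE 0.26, edgeR's quasi-likelihood test, adjusted p = 0.00166 with a model that gave every combination of day and form its own term). Against day 0 the log2 fold change for libraries with 1 digit was 2.11 (adjusted p = 5.17e-06), and for those with 3 digits it was 0.69 (adjusted p = 0.0295), so Cdh1 was higher at day 1 in each. For day 3 this fold change came to 1.36 with 1 digit (adjusted p = 0.00035) and to 0.68 with 3 digits (adjusted p = 0.0231), where the forms differed by -0.68 (adjusted p = 0.0668). That difference was -0.84 without replicate 1 of day 3 (adjusted p = 0.0273) and -1.04 without replicate 4 of day 3. The calls in the 3-digit libraries did not hold in each leave-one-out fit, where the adjusted p reached 0.137 at day 1 without replicate 2 of day 1 and 0.106 at day 3 without replicate 1 of day 3.

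Cdh16 (ENSMUSG00000031881.6), which encodes kidney-specific cadherin of the tubular basolateral membrane, lies on chr8:104601911-104624396 on the minus strand with up to 18 exons. It had 1475, 1512, 1421 and 1410 CPM at day 0. At day 1 the values were 759, 839, 1314, 1118 and 1135 CPM, and at day 3 they were 878, 1271, 970, 516 and 462 CPM. Each library after IRI was below each library of day 0. At day 3 Cdh16 fell by 0.83 on the log2 scale (SE 0.26, edgeR's quasi-likelihood test, adjusted p = 0.0272), which is 1.77-fold lower. Without replicate 2 of day 3 the change was -1.04 (adjusted p = 0.00487). The call was lost in 6 of the 14 leave-one-out fits, with an adjusted p of up to 0.0625 without replicate 4 of day 3, and with scaling by total counts (-0.68, adjusted p = 0.0519). At day 1 the change was -0.49 (SE 0.26, adjusted p = 0.144), although the groups did not overlap. Day 3 against day 1 gave -0.33 (adjusted p = 0.380). Within the forms it was -1.30 with 1 digit (adjusted p = 0.000204) and 0.38 with 3 digits (adjusted p = 0.164).

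Cdh16 was the one gene of the 10 whose difference between the number forms itself differed between the days. At day 1 the 3-digit libraries were lower than the 1-digit libraries (799 ± 57.0 CPM, SD, n = 2, against 1189 ± 109 CPM, SD, n = 3), by -0.57 on the log2 scale (edgeR's quasi-likelihood test, adjusted p = 0.0215). This call was lost without replicate 1, 2 or 3 of day 1 (adjusted p = 0.127, 0.0843 and 0.0582) and when libraries were scaled by total counts (-0.36, adjusted p = 0.108). At day 3 they were higher (1040 ± 206 CPM, SD, n = 3, against 489 ± 38.0 CPM, SD, n = 2), by 1.09 (adjusted p = 0.0039, 0.0630 without replicate 5 of day 3). The difference of the 2 differences was -1.66 (SE 0.25, adjusted p = 0.0012), and 17.6% of all genes were called in this test (9.1% in the negative direction). Against day 0, Cdh16 was lower by -0.86 in the 3-digit libraries of day 1 (adjusted p = 0.00146), by -1.57 in the 1-digit libraries of day 3 (adjusted p = 2.28e-05) and by -0.48 in the 3-digit libraries of day 3 (adjusted p = 0.0208, up to 0.0838 when replicate 1 of day 3 was left out). In the 1-digit libraries of day 1 the change was -0.29 (adjusted p = 0.0967), or -0.40 with total counts (adjusted p = 0.0252). Without replicate 2 of day 3 it stayed at -0.29 (adjusted p = 0.0457). The summed proximal tubule markers had the same order: at day 1, libraries with 3 digits had 3193 and 3632 CPM and those with 1 digit 8232 to 12933 CPM, whereas at day 3 those with 3 digits had 6046 to 11964 CPM and those with 1 digit 2087 and 4073 CPM. The part of proximal tubule content in the Cdh16 values was not tested.

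Cdh2, the gene of N-cadherin, lies on the minus strand of chromosome 18 and overlaps an antisense gene, Gm15485, on the other strand. It was a low gene, with 7.77, 7.30, 7.20 and 7.14 CPM at day 0. The day 1 values were 5.23, 4.95, 4.91, 3.66 and 6.27 CPM, all below day 0, and the day 3 values were 3.36, 9.86, 4.75, 4.44 and 2.86 CPM. Replicate 2 of day 3 was the highest of all libraries and the other 4 of that day lay below day 0. The change was -0.56 at day 1 (95% interval -1.21 to 0.10, edgeR's quasi-likelihood test, adjusted p = 0.156) and -0.54 at day 3 (interval -1.19 to 0.12, adjusted p = 0.189). Without replicate 2 of day 3 it was -0.93 at day 3 (adjusted p = 0.00572) and -0.56 at day 1 (adjusted p = 0.0449). In the 1-digit libraries alone Cdh2 fell by 1.01 at day 3 (adjusted p = 0.0395, 0.264 without replicate 5 of day 3). The 3-digit libraries gave -0.30 (adjusted p = 0.50), or -0.86 without replicate 2 of day 3 (adjusted p = 0.0239).

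Cdh6 (ENSMUSG00000039385.5), a cadherin of the early nephron epithelium, lies on chr15:13028701-13173675 on the minus strand. It was counted 26 to 37 times per library at day 0. Its levels were 2.01, 1.53, 1.77 and 2.24 CPM at day 0, 1.29, 2.18, 1.29, 0.80 and 2.49 CPM at day 1, and 2.04, 6.25, 4.46, 1.88 and 1.40 CPM at day 3. Replicates 2 and 3 of day 3, both 3-digit, stood above all other libraries. The change was -0.23 at day 1 (95% interval -1.19 to 0.73, edgeR's quasi-likelihood test, adjusted p = 0.701) and 0.77 at day 3 (interval -0.19 to 1.72, adjusted p = 0.199). For libraries with 3 digits the day 3 change was 1.16 (adjusted p = 0.0424), and for those with 1 digit it was -0.20 (adjusted p = 0.749). Without replicate 2 of day 3 the change over both forms was 0.38 (adjusted p = 0.481), and that of the 3-digit libraries 0.78 (adjusted p = 0.171).

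Epcam (ENSMUSG00000045394.9), an adhesion protein of most epithelia that is enriched in the distal nephron and collecting duct, lies on chr17:87635979-87651129 on the plus strand, just after the promoter window printed above. It had 112, 113, 120 and 137 CPM at day 0, 140, 173, 121, 162 and 187 CPM at day 1, and 154, 61.6, 146, 147 and 164 CPM at day 3. The groups overlapped on both days, and replicate 2 of day 3 was the lowest of the 14 libraries. The Epcam difference from day 0 was 0.38 at day 1 (95% interval -0.11 to 0.87, edgeR's quasi-likelihood test, adjusted p = 0.196) and 0.16 at day 3 (interval -0.33 to 0.64, adjusted p = 0.621), neither of which passed the threshold. Without replicate 2 of day 3 these were 0.38 (adjusted p = 0.0349) and 0.34 (adjusted p = 0.0681).

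Vim (ENSMUSG00000026728.9), the gene of the intermediate filament protein vimentin, lies on chr2:13573927-13582826 on the plus strand. It had 33.5, 27.7, 28.7 and 33.9 CPM at day 0, 126, 131, 81.1, 73.3 and 101 CPM at day 1, and 157, 263, 210, 194 and 149 CPM at day 3. The 3 days did not overlap, and Vim was the one gene of the 10 for which this held. It rose 3.32-fold by day 1 (log2 1.73, SE 0.21, edgeR's quasi-likelihood test, adjusted p = 5.61e-05) and 6.29-fold by day 3 (log2 2.65, SE 0.22, adjusted p = 5.32e-06). From day 1 to day 3 it rose by a further 1.90-fold (log2 0.92, SE 0.19, adjusted p = 0.00774). All 3 calls held in each of the 14 leave-one-out fits, where the adjusted p was at most 0.000499, 5.9e-05 and 0.0216, in that order. Vim was also higher than at day 0 in both number forms, by 1.46 (1-digit) and 2.06 (3-digit) at day 1 and by 2.47 and 2.76 at day 3, with adjusted p-values of 1.93e-05, 8.81e-06, 2.4e-06 and 8.91e-07. At day 1 the 3-digit libraries were higher than the 1-digit libraries by 0.60 (SE 0.20, adjusted p = 0.0371), and leaving out any 1 of replicates 1 to 4 of day 1 or replicate 3 of day 3 took this above the threshold, with an adjusted p of up to 0.162.

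Markers of cells that are known to express Vim did not all follow one course over these days. The 7 fibroblast and pericyte markers summed to 125 to 135 CPM at day 0, 145 to 443 CPM at day 1 and 525 to 1154 CPM at day 3, led by Col3a1, and 2 of 7 rose at day 1 and 5 of 7 at day 3. The 4 smooth muscle markers (Tagln leading) went from 43.2 to 76.1 CPM at day 0 to 96.2 to 389 CPM at day 1 and 155 to 842 CPM at day 3, with 2 of 4 higher on either day. The 7 leukocyte and macrophage markers (Lyz2 leading) summed to 119 to 189 CPM at day 0, to less at day 1 (63.6 to 107 CPM, with 2 of 7 higher, 1 lower and a median log2 fold change of -0.64) and to 112 to 405 CPM at day 3 (3 higher and 1 lower). The 6 endothelial markers (Emcn leading) summed to 238 to 304 CPM, 308 to 513 CPM and 165 to 626 CPM on the 3 days. Of these, 2 were higher and 1 lower at day 1, and 0 were called at day 3 by edgeR's quasi-likelihood test or DESeq2, with 1 at an unadjusted p under 0.05 in edgeR. Within the forms, 5 of 6 were higher at day 3 in libraries with 1 digit and 0 of 6 were called in those with 3 digits (medians 0.89 and -0.10). The 6 injured tubule markers, of which Spp1 was the highest, went from 1189 to 1507 CPM at day 0 to 7900 to 36116 CPM at day 1 and 6196 to 43508 CPM at day 3, and 6 of 6 and 5 of 6 rose. No marker of these lists was at 0 in a whole day. The part of each cell type in the Vim values was not tested, and in bulk kidney more cells of a type and more RNA per cell cannot be told apart.

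Of the 4 transcription factors, Zeb1 was called higher and Snai2 lower at day 1, and 0 were called against day 0 at day 3 by edgeR's quasi-likelihood test or DESeq2 (1, Zeb1, at an unadjusted p under 0.05 in edgeR). Zeb1, a zinc-finger repressor of Cdh1, lies on the plus strand of chromosome 18 and shares its span with a pair of genes on the other strand (Gm10125 and Gm16147) and a microRNA gene on its own (Gm22709). It had 6.10, 6.53, 6.57 and 9.13 CPM at day 0, 11.9, 11.1, 11.0, 11.4 and 15.2 CPM at day 1, and 7.33, 8.45, 9.85, 10.5 and 14.4 CPM at day 3. All day 1 libraries were above day 0, while day 3 overlapped with it. Zeb1 rose 1.71-fold at day 1 (log2 0.77, SE 0.21, edgeR's quasi-likelihood test, adjusted p = 0.0104), with 0.82 for libraries with 1 digit (adjusted p = 0.00307) and 0.70 for those with 3 digits (adjusted p = 0.0207, up to 0.134 with replicate 1 of day 1 left out). At day 3 the change was 0.51 (95% interval 0.06 to 0.96, adjusted p = 0.0764), which passed the threshold without replicate 4 of day 0 (0.65, adjusted p = 0.0477), without replicate 1 of day 3 (0.61, adjusted p = 0.0463) and with total counts (0.65, adjusted p = 0.0390) or the number form as a term (0.69, adjusted p = 0.0159). It was 0.81 for libraries with 1 digit (adjusted p = 0.00735, 0.104 without replicate 5 of day 3) and 0.27 for those with 3 digits (adjusted p = 0.317).

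Snai2 (ENSMUSG00000022676.7), the gene of the Snail-family repressor Slug, lies on chr16:14705852-14709385 on the plus strand. It had 2.30, 2.30, 2.53 and 2.30 CPM at day 0 and 0.92, 1.36, 0.95, 0.97 and 1.29 CPM at day 1, from 14 to 30 reads. At day 3 it had 1.22, 2.87, 4.16, 2.96 and 1.32 CPM. All day 1 values lay below all day 0 values, and the day 3 values lay on both sides of day 0. Snai2 fell 2.14-fold at day 1 (log2 -1.10, SE 0.35, edgeR's quasi-likelihood test, adjusted p = 0.0214, 0.0520 without replicate 3 of day 0), by 1.14 in the 1-digit libraries (adjusted p = 0.0298, up to 0.0928 without replicate 4 of day 1) with a value of -1.04 for libraries with 3 digits (adjusted p = 0.0868). From day 1 to day 3 it rose 2.28-fold (log2 1.19, SE 0.33, adjusted p = 0.0282), a call lost in 5 of 14 leave-one-out fits (adjusted p up to 0.0833 without replicate 3 of day 3). It was also lost with only these 2 days in the fit (adjusted p = 0.0830) and within each form (1.00 with 1 digit, adjusted p = 0.0612, and 1.26 with 3 digits, adjusted p = 0.104). Day 3 differed from day 0 by 0.09 (95% interval -0.64 to 0.82, adjusted p = 0.851).

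Snai1 (ENSMUSG00000042821.7), which encodes Snail and whose promoter window holds 1 E-box, lies on chr2:167538195-167542814 on the plus strand. Its levels were 0.98, 1.65, 0.88 and 0.85 CPM at day 0, 2.91, 3.45, 2.04, 0.91 and 1.45 CPM at day 1, and 1.68, 0.90, 2.28, 1.01 and 3.75 CPM at day 3, on 14 to 76 reads. The groups overlapped on both days. The change was 0.99 at day 1 (95% interval -0.04 to 2.01, edgeR's quasi-likelihood test, adjusted p = 0.109) and 0.81 at day 3 (interval -0.22 to 1.83, adjusted p = 0.205). In the 3-digit libraries of day 1, which were the 2 highest of that day, Snai1 rose by 1.54 against day 0 (adjusted p = 0.0240, 0.120 without replicate 2 of day 1), while libraries with 1 digit gave 0.42 (adjusted p = 0.469). The difference between the forms at day 1 was 1.12 (interval -0.02 to 2.26, adjusted p = 0.116).

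Twist1 (ENSMUSG00000035799.6), a basic helix-loop-helix factor of mesenchyme, lies on chr12:33957671-33959829 on the plus strand. It had 0.17, 0.24, 0.95 and 0.12 CPM at day 0, 0.59, 0.41, 1.57, 1.49 and 1.05 CPM at day 1, and 0.31, 0.11, 0.69, 0.74 and 0.95 CPM at day 3. Replicate 3 of day 0, with 15 reads, lay within the range of day 1. The change was 1.45 at day 1 (95% interval 0.01 to 2.89, edgeR's quasi-likelihood test, adjusted p = 0.0956) and 0.59 at day 3 (interval -0.88 to 2.05, adjusted p = 0.527). Without replicate 3 of day 0 the day 1 value was 2.47 (adjusted p = 0.0183), and with the number form as a term it was 1.84 (adjusted p = 0.0170), both past the threshold. Twist1 was higher than at day 0 in the 1-digit libraries of day 1 (1.89, adjusted p = 0.0175, up to 0.0523 without replicate 1 of day 0), and the 3-digit libraries gave 0.44 (adjusted p = 0.654). At day 3 the 1-digit libraries gave 1.20 (adjusted p = 0.172), or 2.21 without replicate 3 of day 0 (adjusted p = 0.0137). The 3-digit libraries of day 3 gave 0.046 (adjusted p = 0.966).

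Across the number forms, 3 of the 10 genes differed at day 1 (Cdh1 and Cdh16 lower and Vim higher in 3-digit libraries), beside 35% of all genes tested (18.6% higher and 16.4% lower). At day 3, 1 of the 10 differed (Cdh16, higher), beside 18.5% of all genes (10.3% higher and 8.22% lower). The forms did not overlap at day 1 in 5 of the 10 genes (60.7% of all genes) and at day 3 in 4 (41.4% of all genes). Within the 1-digit libraries, 5 of the 10 genes were called at day 1 (58.5% of all genes, 28.9% higher and 29.6% lower) and 5 at day 3 (53.7%, of which 28.6% higher and 25.1% lower). The 3-digit libraries gave 5 at day 1 (41.6%, with 22.6% higher and 19% lower) and 4 at day 3 (32.4%, with 19.1% higher and 13.3% lower). These counts moved when 1 library was left out: from 4 to 8 and from 3 to 6 in the 1-digit libraries at day 1 and day 3 (8 without replicate 2 and 3 without replicate 5 of day 3), and from 2 to 6 and from 1 to 4 in the 3-digit libraries (2 without replicate 1 of day 0 or replicate 1 or 2 of day 1, and 1 without replicate 2 of day 0 or replicate 3 of day 3). Shares of all genes were not counted in those left-out fits. Cdh1 and Vim were called as higher in all 4 comparisons of a form with day 0. The 3-digit libraries of day 1 also had the higher injured tubule markers (30564 and 36116 CPM against 7900 to 15360 CPM) and fibroblast and pericyte markers (334 and 443 CPM against 145 to 195 CPM), whose part in these differences was not tested.

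**Figure D3:**
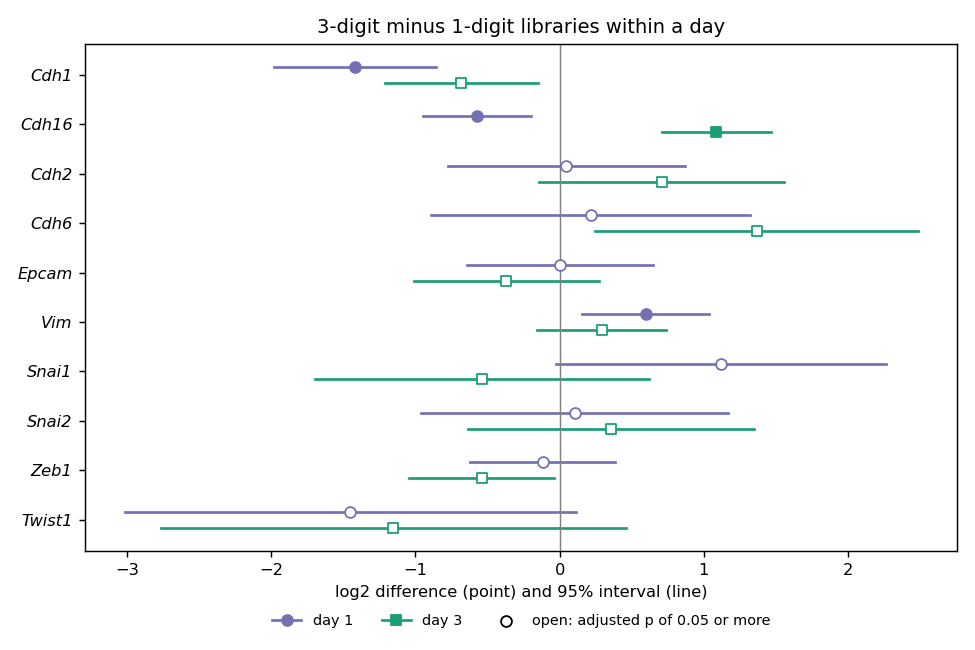
Difference between the 3-digit and the 1-digit libraries of day 1 (circles, 2 against 3 libraries) and of day 3 (squares, 3 against 2 libraries) on the log2 scale for each gene, with 95% intervals, from edgeR's quasi-likelihood fit. Filled symbols have an adjusted p below 0.05. Cdh16 lies left of 0 at day 1 (-0.57) and right of 0 at day 3 (1.09).

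Ratios of a pair of genes within a library do not depend on how libraries are scaled, and 3 were compared between days by exact permutation tests (two-sided, smallest possible p = 0.00794, adjusted over 9 tests). A rise of N-cadherin over E-cadherin within cells is called the cadherin switch of EMT, which reads of bulk kidney can neither show nor exclude. The ratio of N-cadherin to E-cadherin reads did not go up here. Its mean log2 value was -4.68 ± 0.21 (SD, n = 4) at day 0, -6.79 ± 0.87 (SD, n = 5) at day 1 and -6.27 ± 1.20 (SD, n = 5) at day 3. It was lower at day 1 by -2.11 (exact permutation p = 0.0159, adjusted p = 0.0357) and in 5 of 5 libraries of that day. At day 3 the difference was -1.60 (exact permutation p = 0.0476, adjusted p = 0.0833), or -2.05 without replicate 2 (adjusted p = 0.0643), which alone lay at the day 0 level (-4.47).

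The ratio of Vim to Cdh1 reads was -2.61 ± 0.16 (SD, n = 4) at day 0, -2.46 ± 1.13 (SD, n = 5) at day 1 and -0.90 ± 0.85 (SD, n = 5) at day 3. At day 3 it was higher by 1.71 (exact permutation p = 0.0159, adjusted p = 0.0357) and lay above day 0 in each of the 5 libraries. At day 1 the difference was 0.15 (exact permutation p = 0.786), and the number forms lay on either side of day 0: the 3-digit libraries had -1.22 and -1.27 and the 1-digit libraries -3.08 to -3.58, where day 0 spanned -2.73 to -2.37.

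The ratio of Cdh6 to Cdh16 reads was -9.58 ± 0.27 (SD, n = 4) at day 0, -9.38 ± 0.77 (SD, n = 5) at day 1 and -8.11 ± 0.44 (SD, n = 5) at day 3. It was higher at day 3 than at day 0 by 1.47 (exact permutation p = 0.00794, adjusted p = 0.0357), with no overlap, and than at day 1 by 1.27 (exact permutation p = 0.0159, adjusted p = 0.0357). With a single library left out, these called ratios kept their sign. The adjusted p was then above 0.05 in 14 of 14 fits for Cdh2 to Cdh1 at day 1 and in 12 of 14 for each of the other called ratios (up to 0.0893). The adjustment joins all 9 tests and fewer libraries allow only larger p-values, so a library of a day outside the comparison also moved the adjusted p without moving the value, and these losses say little about stability.

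**Figure D4:**
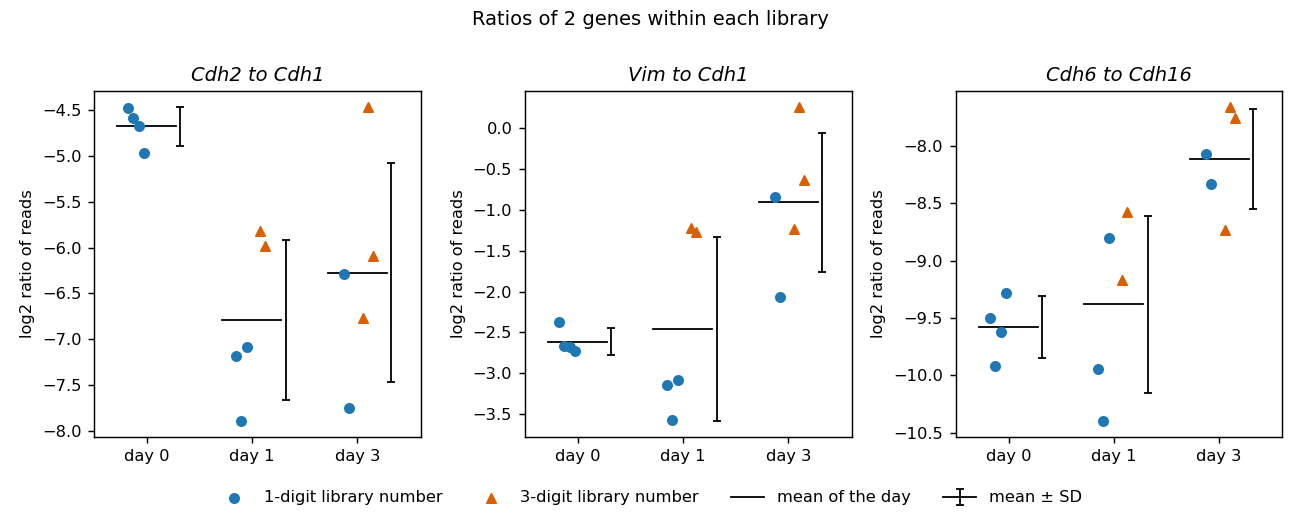
Log2 ratio of the reads of Cdh2 to Cdh1, Vim to Cdh1 and Cdh6 to Cdh16 in each library of the 3 days. Circles are 1-digit and triangles 3-digit libraries, lines are means and bars are SD (n = 4, 5 and 5). Vim to Cdh1 at day 1 splits into triangles at -1.22 and -1.27 and circles at or below -3.08, and Cdh2 to Cdh1 lies below day 0 in all libraries after IRI but replicate 2 of day 3.

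Other genes of adhesion were described from a list of 14 further cadherins, catenins and nectins, of which 13 were tested. At day 1, 6 of 13 rose and the other 7 were not called, and at day 3, 5 rose and 1 fell (Pvrl3, named after its value was seen). Within the forms, 5 rose and 2 fell at day 1 with 1 digit, and 7 rose with 3 digits. At day 3, 9 rose and 1 fell with 1 digit, and 4 rose and 1 fell with 3 digits, beside the shares of all genes given above. Over both forms, the median log2 fold change of the list was 0.0097 at day 1 and 0.28 at day 3, beside 0.0073 and 0.054 over all genes tested. The largest changes were those of Cdh3, the gene of P-cadherin, which rose 3.52-fold at day 1 (log2 1.82, SE 0.33, edgeR's quasi-likelihood test, adjusted p = 0.000849) and 4.24-fold at day 3 (log2 2.09, adjusted p = 0.000501), and of Pvrl2, the nectin-2 gene, with 3.07-fold (adjusted p = 0.00017) and 2.38-fold (adjusted p = 0.0012). Cdh3 had 5.18 ± 0.577 CPM at day 0 (SD, n = 4), 18.2 ± 6.10 CPM at day 1 and 22.0 ± 9.26 CPM at day 3 (SD, n = 5 each). From day 1 to day 3, Cdh11, a cadherin of mesenchymal cells, rose 3.20-fold (adjusted p = 0.0029) and Pvrl1 fell by 0.93 on the log2 scale (adjusted p = 0.0125), with -0.49 in the 1-digit libraries alone (adjusted p = 0.154). Ctnnb1, the beta-catenin gene, was picked after its values were seen: its day 1 difference from day 0 was 0.0097 (adjusted p = 0.975), but its 3-digit libraries had 769 ± 56.3 CPM (SD, n = 2) and its 1-digit libraries 396 ± 8.21 CPM (SD, n = 3), against 542 ± 15.9 CPM (SD, n = 4) at day 0.

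Of 8 other EMT regulators, 7 were tested. At day 1 the count called was 0 by edgeR's quasi-likelihood test and 0 by DESeq2, with 1 of 7 at an unadjusted p under 0.05 by either tool. Within the forms, however, 2 were higher and 1 lower at day 1 with 1 digit, and 2 were higher with 3 digits. At day 3, 1 rose over both forms (3 with 1 digit and 1 with 3 digits): Prrx1, a homeobox factor of mesenchyme, 2.98-fold against day 0 (log2 1.57, SE 0.43, adjusted p = 0.0127) and 2.39-fold against day 1 (log2 1.26, adjusted p = 0.0422). The change against day 1 lost its call in 10 of 14 leave-one-out fits (adjusted p up to 0.104 without replicate 3 of day 3), and was 0.46 in the 3-digit libraries (adjusted p = 0.407). It had 1.93 ± 0.326 CPM at day 0 (SD, n = 4), 2.39 ± 1.42 CPM at day 1 and 5.76 ± 2.14 CPM at day 3 (SD, n = 5 each). The list's median was 0.31 on both days. Of 7 regulators that oppose EMT and keep the epithelial state, 2 rose at day 1, namely Grhl1 (3.65-fold, adjusted p = 0.00589) and Elf3 (1.96-fold, adjusted p = 0.00902), and 1 fell (Esrp2, named after its value was seen, by 0.36 on the log2 scale, adjusted p = 0.0452). At day 3, 1 of 7 was higher, which was Elf3 (1.85-fold, adjusted p = 0.0186). This call was lost without replicate 1, 2 or 3 of day 0 (adjusted p up to 0.0615) and with the number form as a term (0.0507), and that of Grhl1 at day 1 was lost in the 3-digit libraries (log2 1.39, adjusted p = 0.0648).

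The list with most calls held 9 other intermediate filament and mesenchymal proteins: 7 of 9 rose at day 1 and 9 of 9 at day 3, with median log2 fold changes of 1.77 and 2.09 beside 0.0073 and 0.054 over all genes. Cd44, the hyaluronan receptor, rose 12.0-fold at day 1 (log2 3.59, SE 0.31, edgeR's quasi-likelihood test, adjusted p = 4.77e-06) and 13.7-fold at day 3 (log2 3.78, adjusted p = 5.32e-06). Tnc, the matrix protein tenascin-C, rose 11.8-fold (adjusted p = 0.00311) and 15.5-fold (adjusted p = 0.00249). From day 1 to day 3, Fn1 (fibronectin) rose 2.85-fold (adjusted p = 0.0062) and S100a4, known as a fibroblast marker, 2.50-fold (log2 1.32, adjusted p = 0.00435). Within the forms, neither S100a4 with 1 digit (0.71, adjusted p = 0.0506) nor Fn1 with 3 digits (1.61, adjusted p = 0.0505) passed the threshold. Fibroblasts are known to express several of these genes, and the part of fibroblasts in their values was not tested, beside 2 of 7 fibroblast and pericyte markers called higher at day 1 and 5 of 7 at day 3. At day 3, 5 of 9 were lower with 3 digits than with 1.

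Patterns across libraries were compared as a description, by the correlation of log2 CPM over the 14 libraries with each gene of at least 10 CPM on average. The libraries share their day, depth and scaling, so such likeness is not evidence of a link. Cdh16 was most like Cyp2j5 (Pearson r = 0.992, Spearman rho = 0.987), Fggy and Acad10. Cdh1 was most like Vps37b (r = 0.987, rho = 0.930), Ankrd50 and Phf13. Vim was most like Mgp (r = 0.967, rho = 0.938), Tmsb10 and S100a4. Zeb1 was most like Ehd4 (r = 0.939, rho = 0.930), Cttnbp2nl and Slc39a6, and Cdh2 was most like Esrra (r = 0.933, rho = 0.938), Lamtor2 and Aebp2. Best matches were weaker for Twist1 (Rcan2, r = 0.904), Snai2 (Rgs5, r = 0.895), Epcam (Sec63, r = 0.862) and Cdh6 (Atad2, r = 0.852).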

How the data were processed

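The authors trimmed the reads with Trimmomatic and aligned them with STAR to mm10, per the submitters' processing notes, and deposited, for each library, the unnormalized count of reads that mapped uniquely to a gene. Tool versions, settings and annotation are not given in the sources used here. Counting unique reads only lowers genes with near-identical copies. The column of the strand that held 98.5% to 98.7% of strand-assigned reads was used, so antisense genes were counted apart. Entries that name no gene (29.0% to 38.3% of reads) were left out of library sizes and tests.

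The tests were run with edgeR 4.0.16 under R 4.3.3 (filterByExpr by day, TMM, quasi-likelihood test, 1 term per day over 14 libraries, and a second fit whose terms were the 5 combinations of day and number form), Benjamini-Hochberg adjustment over 14300 genes, and DESeq2 1.42.0 as an alternative. The fits were tested on simulated data. SE came from the F value. A prior count of 2 was added for log2 CPM. Ratios used reads plus 0.5. Lengths and positions came from the GENCODE annotation of GRCm38. Replicates of a day were no repeats of one library, since chi-square divided by its degrees of freedom was 5.94 to 241 between them.

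The 10 genes, the 4 lists of other genes and the 10 marker lists were chosen with earlier results of these data known. Named were all 10 genes, the 2 list genes with the largest called change of at least 1 CPM on average in each comparison of days, the highest gene of the marker lists discussed, and the genes most like each of the 10 (3 for those with the closest matches, otherwise the first), of which 1 is not reported here.

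Not printed above were the summed levels, over day 0, day 1 and day 3, of thick limb and distal tubule markers (Umod leading; 6812 to 9426, 3338 to 6053 and 2155 to 3293 CPM), collecting duct markers (Aqp2; 802 to 1069, 440 to 827 and 288 to 769 CPM), podocyte markers (Podxl; 254 to 346, 355 to 442 and 323 to 451 CPM) and urothelium markers (2.30 to 48.0, 364 to 1209 and 53.6 to 883 CPM). Of the urothelium markers, Krt20, which injured tubule also expresses, had means of 0.862, 709 and 282 CPM on these days. The alternatives were the unstranded column, RLE factors, total counts, an unfiltered fit, a minimum of 10 counts in each library, a log2 fold change of at least 1, DESeq2, only the days compared, a replicate block, the number form as a term or within each form, a pseudocount of 2 for ratios, and leaving out each library.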

Additional observations from a re-analysis of the deposited data

Results flagged for a closer look

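In 7 of 39 sets of values (10 genes and 3 ratios on 3 days), 1 library stood apart from the others of its day by Dixon's criterion, where 1 in 20 gives 1.95. At day 3, replicate 2 had 9.86 CPM of Cdh2, with 4.75 CPM in the next library, and 61.6 CPM of Epcam, with 146 CPM in the next. This is the library with most proximal tubule marker RNA of its day. At day 0, replicate 2 had 1.65 CPM of Snai1 (next 0.978), replicate 3 had 2.53 CPM of Snai2 (next 2.30) and 0.948 CPM of Twist1 (next 0.235), and replicate 4 had 9.13 CPM of Zeb1 (next 6.57). Snai2 was counted 40, 39, 40 and 38 times in replicates 1 to 4 of day 0, so replicate 3 stands apart only after library scaling. At day 1, replicate 5 had 15.2 CPM of Zeb1 (next 11.9).

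Cdh16 was marked because its effect of the number form differed between the days, by -1.66 on the log2 scale (edgeR's quasi-likelihood test, adjusted p = 0.0012, at most 0.0103 when a library was left out).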

How the results depend on the processing

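Over the 100 log2 fold changes of the 10 genes, 778 of 840 values under other settings kept direction and call, and 1278 of 1400 with 1 library left out. No called change reversed. The calls of Cdh1, Vim and Zeb1 at day 1 and of Vim at day 3 held in all leave-one-out fits, whereas those of Cdh1 and Cdh16 at day 3 and of Snai2 did not. Same-numbered libraries correlated at -0.175 to 0.261 over 13 pairs, and 4 of 14 libraries correlated best with their own number. The labels do not say that the numbers pair samples, and these correlations cannot exclude it. No pairing was used in the main tests. The cause of the changes listed next was not tested. Twist1, Snai1, Snai2 and Cdh6 rest on at most 111 reads in a library, which limits their precision.

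With a log2 fold change of at least 1, genes called were 2963 (day 1), 2597 (day 3) and 921 (day 3 against day 1), and of the 10 genes 1 at day 3, 1 at day 3 against day 1 and 1 by number form at day 1, and in the 3-digit libraries 2 at day 1 and 2 at day 3. With only the days compared, 831 genes were called at day 3 against day 1, 7 of the 10 at day 1 (Cdh2, Cdh16 and Epcam added) and 1 at day 3 against day 1. Genes called at day 1 over all settings but a left-out library ran from 2963 to 8839, against 6020 in the main fit. With the replicate block, 1 of the 10 was called at day 3 and 1 at day 3 against day 1, Snai2 had an adjusted p of 0.0506 at day 1 and 0.0574 at day 3 against day 1, Cdh2 at day 3 against day 1 was -0.065, and the ratio of Cdh2 to Cdh1 at day 1 was -2.04, Vim to Cdh1 at day 3 was 2.00 and Cdh6 to Cdh16 was 1.52 at day 3 and 1.27 at day 3 against day 1, each with an adjusted p of 0.225. DESeq2 called 3 of the 10 by number form at day 3 (Cdh1 and Cdh6 added), where its share of all genes was not counted. Here and below, counts of the 10 without the share of all genes cannot be read as particular to these genes.

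With 1-digit libraries only, 8119 genes were called at day 3, 5194 at day 3 against day 1 and 5 of the 10 at day 3. Cdh2 to Cdh1 at day 1 was then -2.71, Vim to Cdh1 -0.66 at day 1 and 1.15 at day 3, and Cdh6 to Cdh16 -0.14 at day 1, 1.38 at day 3 and 1.51 at day 3 against day 1. With 3-digit libraries and day 0, 1 of the 10 was called at day 3 against day 1, and these ratios were -1.22 (Cdh2 to Cdh1, day 1), 2.08 (Vim to Cdh1, day 3), 1.53 and 0.82 (Cdh6 to Cdh16, day 3 against day 0 and day 1). In both, the few libraries left no adjusted p under 0.12.

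Uncalled changes reversed as follows. Cdh2 at day 3 against day 1 was -0.0057 with RLE, -0.0031 with DESeq2, -0.089 with the form as a term and -0.44 in 1-digit libraries. In 1-digit libraries Cdh6 was -0.18 and Snai2 -0.11 at day 3, and Snai1 was 0.67 at day 3 against day 1. Snai2 at day 3 was -0.058 with the form as a term. In 3-digit libraries Epcam was -0.0022 at day 3, or 0.15 with total counts, and Cdh16 was 0.38 at day 3 against day 1. The form difference of Epcam at day 1 was -0.041 with RLE or DESeq2 and -0.00071 with no filter, and that of Zeb1 was 0.088 with total counts.

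Total counts moved the median of all genes at day 3 from 0.054 to 0.19, and the genes called from 2783 higher and 1974 lower to 3625 and 1286. At day 3 against day 1 they went from 1219 and 1057 to 1721 and 487, and by number form at day 1 from 2656 and 2345 to 3909 and 1439.

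With 1 library left out, genes called at day 3 against day 1 ran from 1269 to 3350. Of the 10 genes, 1 to 4 were called at day 3, 1 to 3 at day 3 against day 1, 1 to 3 by number form at day 1, 0 to 4 at day 3, and 1 to 2 for the difference of the forms. The ratios ran from -2.36 to -1.84 (Cdh2 to Cdh1, day 1), -0.16 to 0.43 and 1.42 to 2.00 (Vim to Cdh1, day 1 and day 3), and 1.35 to 1.62 and 1.01 to 1.47 (Cdh6 to Cdh16, day 3 against day 0 and day 1). Uncalled changes that crossed 0 were, at day 3 against day 1, Cdh2 (-0.37 to 0.14) and Snai1 (-0.57 to 0.062), and at day 3 Snai2 (-0.20 to 0.27). Form differences at day 1 were Cdh2 (-0.14 to 0.25), Cdh6 (-0.21 to 0.74), Epcam (-0.16 to 0.15), Snai2 (-0.21 to 0.34) and Zeb1 (-0.20 to 0.042), at day 3 Snai1 (-1.20 to 0.67) and Snai2 (-0.12 to 1.05), and between the days Snai2 (-0.95 to 0.22) and Twist1 (-0.70 to 0.49). Against day 0, 1-digit libraries of day 3 gave Cdh6 (-0.43 to 0.022), Snai1 (-0.086 to 1.78) and Snai2 (-0.83 to 0.35), 3-digit libraries of day 3 gave Epcam (-0.22 to 0.31), Snai2 (-0.24 to 0.58) and Twist1 (-0.80 to 1.06), and 3-digit libraries of day 1 gave Cdh6 (-0.54 to 0.17).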
